A study of Rattus norvegicus with 18 samples.

Results

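The genes described here carry proteins through the secretory pathway. They were taken from the gene symbols of the array: every probe set outside the controls that named 1 gene whose symbol began with Rab, Arf, Snap, Sec, Ssr or Srp and a digit, with Stx or Vamp, or with Cop and a, b, e or z. That gave 67 genes, read by 100 probe sets, of 4736 genes with a single symbol on the array. No gene of the Srp family met the rule. Where several probe sets read a gene, which was so for 26 of the 67, the one of highest mean on the log2 scale stood for it.

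Female Sprague-Dawley rats were used at 3 ages, called young (6 weeks old at fracture), adult (26 weeks) and older (52 weeks). The femur was broken at mid-shaft over an intramedullary rod, and RNA was taken from the middle of the bone with its callus, cortex and marrow. Bone was sampled without a fracture, called no fracture or intact here, and 3 days or 1, 2, 4 or 6 weeks after fracture. There was 1 Affymetrix rat genome array for each age at each time, 18 in all, and each array read RNA pooled from 2 rats. Signal is the deposited intensity of a probe set, scaled by the authors to a common target on every array. Log2 changes were computed with signals under 20 set to a floor of 20. The 3 ages served as the replicates of a time, the 6 times served as the replicates of an age, and the p-values measure the spread between these samples. In such mixed tissue, fewer cells of a type and less RNA per cell cannot be told apart.

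Proteins bound for the cell surface or the matrix enter the endoplasmic reticulum through a channel in its membrane, lose their signal peptide there, and are packed into vesicles with a COPII coat that go to the Golgi. COPI coats, which Arf GTPases recruit, shape the vesicles that return from the Golgi. Rab GTPases mark each membrane and steer vesicles to it, and SNARE proteins fuse them with it. Healing bone is known to use this route heavily, since fibroblasts, chondrocytes and osteoblasts all export collagen and other matrix proteins. Other members serve stored granules and synaptic vesicles, which release their content on a signal.

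At 3 days, 27 of the 67 genes were higher and 8 lower than in intact bone at an adjusted p below 0.05 (limma with time and age as terms, Benjamini-Hochberg adjustment over all 8740 probe sets). Over all genes, 20% were higher and 21.9% lower. The median log2 change was 0.25 for the 67 genes and −0.10 over all genes. At 1 week 27 were higher and 7 lower, beside 18.4% and 19.6% of all genes. At 2 weeks 26 were higher and 7 lower, beside 16.2% and 18.3%. At 4 weeks 20 were higher and 4 lower, beside 12.3% and 11%, and at 6 weeks 13 were higher and 5 lower, beside 8.74% and 8.78%. The 5 comparisons share the 3 intact arrays. Bright probe sets were called more often than dim ones, so the 50 members with a median signal of 100 or more were also set beside the 3114 genes as bright. Of these members 25 were higher at 3 days and 5 lower, and of the 3114 genes 866 were higher and 757 lower.

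**Figure D1:**
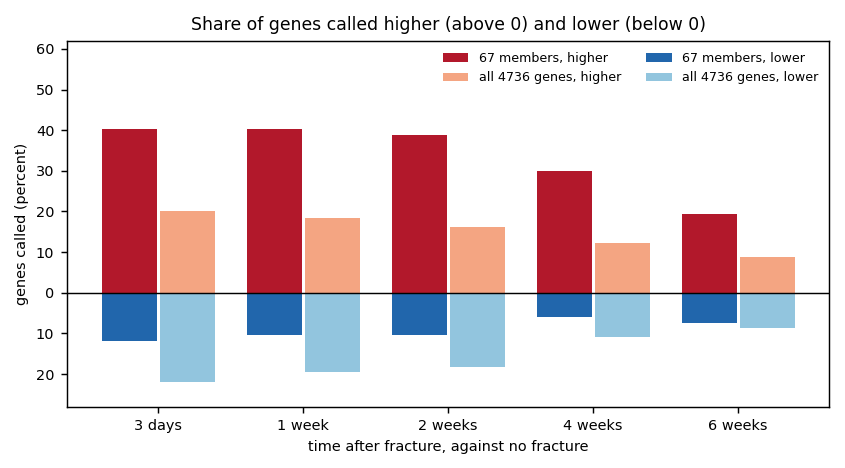
Percent of the 67 secretory and trafficking genes (dark bars) and of all 4736 genes (pale bars) called higher (above 0) or lower (below 0) than in intact bone at each time after fracture. The share called higher was 40.3% of the 67 genes at 3 days against 20% of all genes, and was lower at 6 weeks in both.

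Of the 67 genes, 30 were higher at 1 or more times and never lower, 12 were lower and never higher, 1 (Rab6a) went both ways and 24 were called at no time. Each call is that of 1 probe set per gene. Among the 26 genes with several probe sets, 13 were called at 3 days. For 6 of these 13 a second probe set had the same call. This share was largest at 1 week, 7 of 13, and smallest at 4 weeks, 3 of 9. The test over all 6 times passed for 32 of 67, beside 39.4% of all genes. Rises were most frequent in endoplasmic reticulum entry, the coats, the Arf GTPases and the Rabs of endoplasmic reticulum and Golgi. Of the 22 genes in those groups 18 were higher at 3 days and 1 was lower. These groups by role do not map cleanly to the early part of the route. Arf6, among the 22, works at the cell surface. Stx5 and Sec22a, SNAREs that serve the endoplasmic reticulum or Golgi, were counted elsewhere. Of the 12 Rabs and SNAREs of regulated secretion, none was higher at any time, beside 20% of all genes at 3 days and 8.74% at 6 weeks. Of the 12, Rab15, Rab27a, Rab3a, Rab3c and Snap25 had a median signal under 100, where calls are fewer. Of the 22, Arf3 and Rab2a did. The part of signal level in this contrast was not tested.

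**Figure D2:**
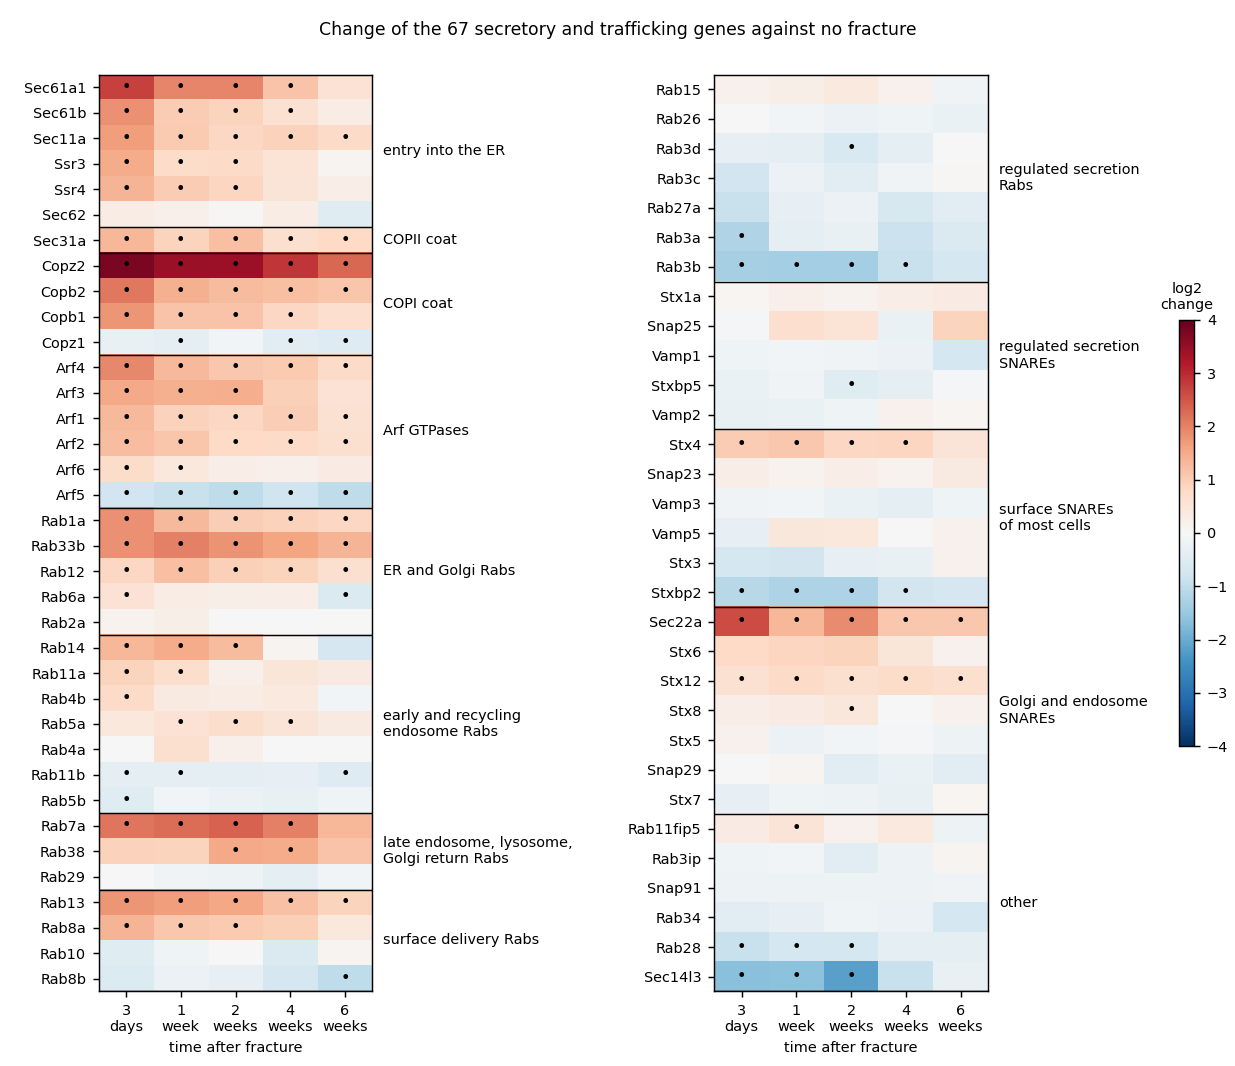
Log2 change against intact bone of each of the 67 genes (rows, grouped by role and sorted by the change at 3 days) at 5 times after fracture (columns). Red is higher, blue is lower, and a dot marks a change with adjusted p below 0.05. ER stands for endoplasmic reticulum. Rises fill most of the upper left of the map, from entry into the ER to the Golgi Rabs. There Arf5 and Copz1 are in blue, and Rab6a (called lower) and Sec62 (not called) turn blue at 6 weeks. No gene of regulated secretion was called higher. Snap25 rose without a call, from a mean signal of 58.7 in intact bone to 108.7 at 6 weeks.

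The make-up of the tissue moved with these changes. The summed signal of 8 fibrous matrix genes was 5245 to 28660 in intact bone and 58240 to 62080 at 3 days, and all 8 were higher. That of 12 skeletal muscle genes was 122100 to 139200 in intact bone, 26250 to 38040 at 3 days and 109200 to 127400 at 2 weeks. All 6 erythroid and all 4 neutrophil genes were lower at 3 days. The actin control had a 3′ to 5′ ratio, which rises as RNA breaks down, of 2.1 to 2.61 in intact bone, 1.48 to 1.9 on 13 fracture arrays, and 2.27 and 2.72 in adult and young rats at 6 weeks. The part of these shifts in the results was not tested. With the actin ratio as a covariate, 15 members were higher at 3 days, 11 at 1 week, 8 at 2 weeks, 0 at 4 weeks and 11 at 6 weeks. Without the adult or without the older rats, 20 were higher at 3 days in either case, 12 and 11 at 1 week, 9 and 8 at 2 weeks, and 0 at 4 and at 6 weeks, while without the young rats 25, 25, 23, 19 and 15 were higher in the same order of times.

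Entry into the endoplasmic reticulum rose almost as a whole: 5 of its 6 genes were higher at 3 days, 1 week and 2 weeks, 3 at 4 weeks and 1 at 6 weeks, with a median log2 change of 1.57 at 3 days. Sec61a1 encodes the pore of the channel. Its signal in young, adult and older rats was 244, 351 and 206 in intact bone and 1450.2, 1969.6 and 1835 at 3 days, a 6.67-fold rise (log2 change 2.74, SE 0.23, adjusted p = 1.9e-05). All 3 arrays at 3 days lay above all 3 intact arrays by a wide margin. Signals were 821, 1114 and 1088 at 1 week, 1008, 1051 and 985 at 2 weeks and 487, 785 and 504 at 4 weeks. By 6 weeks they were 235, 442 and 562, and the young array was below that of intact bone (log2 change 0.57, SE 0.23, adjusted p = 0.13).

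Sec61b, a small subunit of the same channel, had signals of 1841, 1527 and 1199 in intact bone and 5461, 4599 and 6194 at 3 days (log2 change 1.84, SE 0.18, adjusted p = 3e-05). The groups did not overlap, and the lowest signal at 3 days was above every signal at any later time. Ssr3 and Ssr4, subunits of the complex that sits beside the channel, rose by 1.47 and 1.35 on the log2 scale at 3 days. Ssr4 went from 1924, 1622 and 1681 in intact bone to 4863, 3554 and 5046. Neither Ssr gene was called at 4 or 6 weeks. Sec11a, the catalytic subunit of signal peptidase, which cuts off the signal peptide, was the member of the group that was higher at all 5 times. Its signal was 926, 682 and 774 in intact bone, 2459, 2683 and 2395 at 3 days and 1061, 1420.0 and 1582 at 6 weeks (log2 change 0.76, SE 0.15, adjusted p = 0.0096). Sec62, which helps proteins that are already complete into the channel, was called at no time; its log2 change at 3 days was 0.29, SE 0.28, adjusted p = 0.46.

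**Figure D3:**
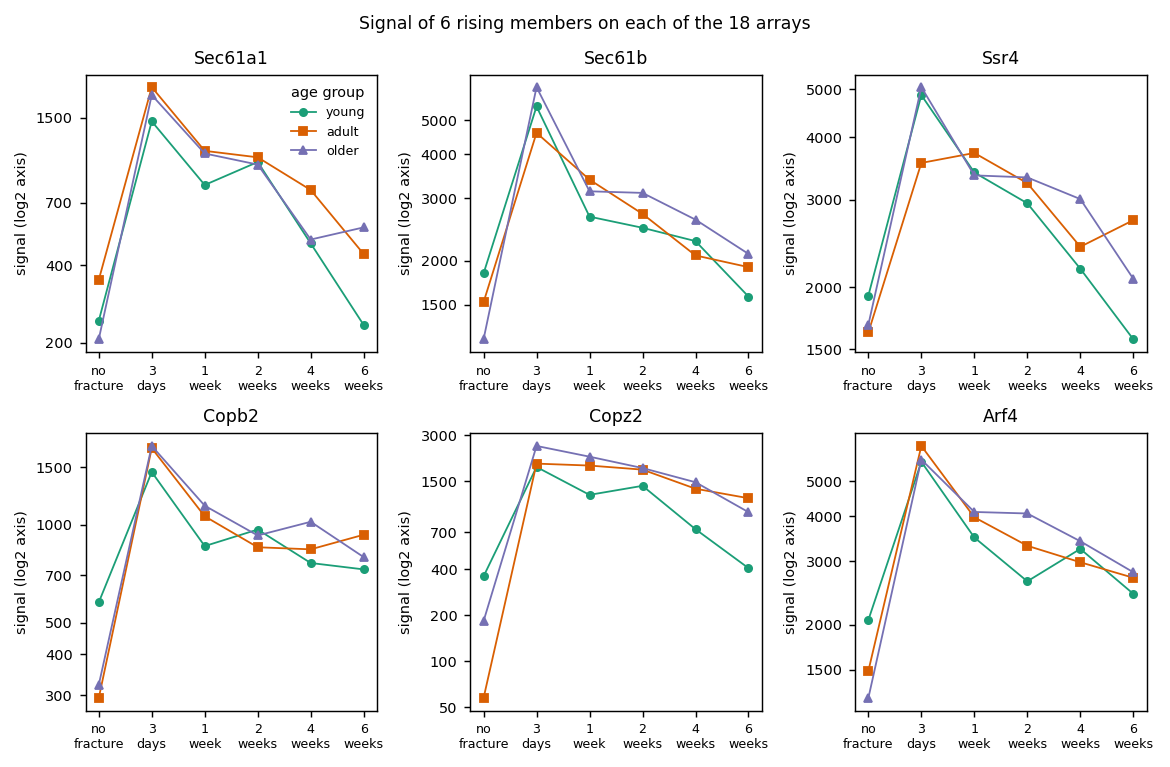
Signal (log2 axis) of 6 genes on each of the 18 arrays, by time (horizontal axis) and age (colours and markers); lines join the arrays of 1 age. Every array at 3 days lies above the 3 intact arrays for all 6 genes, and each age is lower again at 6 weeks than at 3 days.

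Coat genes rose in the same arrays. Sec31a, which forms the outer layer of the COPII coat, was higher at all 5 times, with signals of 2053, 1332 and 1851 in intact bone, 3976, 5058 and 3961 at 3 days and 2699, 3271 and 2912 at 6 weeks (log2 change 1.33, SE 0.19, adjusted p = 0.00032 at 3 days). Of the 4 COPI genes, 3 were higher at 3 days. Copz2, a zeta subunit, had the largest rise of the 67 genes, with signals of 359, 57.3 and 183 in intact bone and 1866, 1963 and 2563 at 3 days (13.6-fold, log2 change 3.76, SE 0.57, adjusted p = 0.00045). The intact arrays differed widely among themselves, with the young array the highest. Copz2 was still higher at 6 weeks, when signals were 406, 1166 and 945 (log2 change 2.30, SE 0.57, adjusted p = 0.022). Copb2, the beta-prime subunit, went from 578, 294 and 323 to 1449.7, 1716 and 1743 at 3 days (log2 change 2.10, SE 0.23, adjusted p = 6.1e-05) and was higher at all 5 times. Copb1, the beta subunit, went from 487, 320.4 and 287 to 1297, 942 and 1481 (log2 change 1.78, SE 0.22, adjusted p = 0.00014) and was higher until 4 weeks.

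Copz1, the other zeta subunit, moved the other way and by little. Its signals were 3115, 3669 and 3383 in intact bone, 2587, 2524 and 2776 at 1 week and 2514, 2382 and 2258 at 6 weeks, all below intact bone at both times. The log2 change was −0.36, adjusted p = 0.044, at 1 week, −0.47, adjusted p = 0.025, at 4 weeks and −0.51, adjusted p = 0.022, at 6 weeks. The difference between Copz1 and Copz2 was not itself tested.

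Of the 6 Arf GTPases, 5 were higher at 3 days and 1 was lower at every time. Arf4, which acts at the Golgi, had signals of 2059, 1487 and 1251 in intact bone and 5655, 6257 and 5734 at 3 days (log2 change 1.91, SE 0.18, adjusted p = 3e-05). Arf1, the GTPase that recruits COPI, went from 2121, 1460.3 and 1683 to 4672, 4137 and 4006 (log2 change 1.30, SE 0.16, adjusted p = 0.00015). Arf2 went from 332, 204 and 212 to 551, 513 and 669 (log2 change 1.24, SE 0.18, adjusted p = 4e-04). These 3 were higher at all 5 times, by 0.75, 0.59 and 0.64 on the log2 scale at 6 weeks. A second probe set of Arf2 did not share its course: as a mean over both, the log2 change of Arf2 at 2 weeks was −0.21.

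Arf3 was higher until 2 weeks from low signals, and Arf6, which works at the cell surface, was higher at 3 days and 1 week. Arf5 was lower throughout. Its signals were 4129.7, 6112 and 3809 in intact bone, 2782, 2666 and 2657 at 3 days, 2498, 2287 and 2019.6 at 2 weeks and 2419.5, 2070.2 and 2384 at 6 weeks. Each of the 15 fracture arrays was below each of the 3 intact arrays. The log2 change was −0.76, SE 0.16, adjusted p = 0.0032 at 3 days and −1.02, SE 0.16, adjusted p = 0.00092 at 2 weeks. Arf genes are close in sequence, and how far their probes tell them apart was not tested.

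Because many of these genes moved together, their promoters were searched for the core of the unfolded protein response element, TGACGTGG or, on the other strand, CCACGTCA, which the stress factors XBP1 and ATF6 are known to bind. RefSeq (build GRCr8) held 300 bases around 1 start per gene, 250 before and 50 from it, for 60 of the 67 genes. Sec61a1 was among the genes without one. The start used need not be the outermost: the Copb1 locus, on the minus strand, reaches base 177876688, beyond its window. The element was in 5 of the 60 (8.33%) and in 4 of the 26 that were higher at 3 days (15.4%). It was in 0.596% of the promoters of genes on the array, in 0.595% of all 33469 promoters and in 1.31% of those of 837 other genes higher at 3 days. The motif and the sets were chosen after the values were seen and got no test. The holders were Arf1, Arf4, Copb1 and Copb2, all higher at 3 days, and Stx5, a SNARE of the Golgi that was called at no time (log2 change 0.17, SE 0.19, adjusted p = 0.5 at 3 days). Their 80 bases from 60 before the start to 20 from it are shown 5′ to 3′ along the gene, with the element in capitals:
Arf1 (chr10:44513975-44514054, minus strand): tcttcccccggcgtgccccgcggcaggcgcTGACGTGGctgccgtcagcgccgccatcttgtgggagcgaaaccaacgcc
Arf4 (chr16:1903376-1903455, plus strand): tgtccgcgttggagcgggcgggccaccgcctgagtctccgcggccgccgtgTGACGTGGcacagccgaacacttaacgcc
Copb1 (chr1:177872821-177872900, minus strand): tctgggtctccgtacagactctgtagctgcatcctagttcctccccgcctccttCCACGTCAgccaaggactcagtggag
Copb2 (chr8:108040627-108040706, plus strand): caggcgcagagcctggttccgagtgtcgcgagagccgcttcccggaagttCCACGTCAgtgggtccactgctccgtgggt
Stx5 (chr1:215066472-215066551, plus strand): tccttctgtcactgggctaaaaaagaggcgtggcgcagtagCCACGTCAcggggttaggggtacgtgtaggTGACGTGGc
The element began 30 bases before the start in Arf1, 10 in Copb2, 9 in Arf4 and 6 in Copb1, and Stx5 held 2 copies. The cAMP response element TGACGTCA, which has the first 6 letters in common with it, was in 1 of the 60 members (1.67%) and in 2.43% of the promoters of genes on the array. CCAAT, in either direction, was in 41.7% and 37.8%. The endoplasmic reticulum stress elements ERSE, which itself holds CCAAT, and ERSE-II were in 0 of the 60 members, and in 0.167% and 0.0716% of the promoters of genes on the array. A match of letters is a description and does not show that a factor binds there.

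Among the Rabs grouped under endoplasmic reticulum and Golgi, 4 of 5 were higher at 3 days. Rab12 was placed in this group by a list of roles, and where it acts was not tested. Rab1a, which moves vesicles from the endoplasmic reticulum to the Golgi, had signals of 161, 143 and 137 in intact bone and 429.5, 486 and 698 at 3 days (log2 change 1.84, SE 0.24, adjusted p = 0.00017). It was higher at every time, and no array at any time after fracture fell to the highest intact signal. Rab33b, a Golgi Rab, went from 95.9, 75.5 and 61.2 to 282, 311 and 326 at 1 week, its highest time (log2 change 2.00, SE 0.23, adjusted p = 0.00014), and was higher at all 5 times. Its second probe set had a mean signal of 13.7, under the floor of 20, and was called lower at all 5 times. Rab12 was also higher at all 5 times, with signals of 528, 499 and 802 in intact bone and 1201, 1342 and 1605 at 1 week (log2 change 1.20, SE 0.16, adjusted p = 0.00028). Rab6a, which serves the return from the Golgi, was the member called both ways. Its signals were 746, 737 and 922 in intact bone, 1076, 1138 and 1406 at 3 days and 493, 393 and 810.0 at 6 weeks. They were all above intact bone at 3 days (log2 change 0.59, SE 0.17, adjusted p = 0.02) and overlapped it at 6 weeks (log2 change −0.56, adjusted p just under the threshold of 0.05).

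Of the 7 SNAREs of Golgi and endosomes, 2 were higher at 3 days, beside 20% of all genes. Sec22a, of the family that fuses vesicles between endoplasmic reticulum and Golgi, was below the floor of 20 on all 3 intact arrays. It read 104, 123 and 139.8 at 3 days and 84.9, 62.4 and 75.0 at 2 weeks. With signals this near the floor its log2 change of 2.60 at 3 days depends on the floor, and with a floor of 100 it was 0 from 1 week on. Stx12, an endosome SNARE, was higher at all 5 times by a modest and even step. Its signals were 282, 274 and 274 in intact bone, 530.2, 414 and 467 at 1 week and 400.2, 456 and 433 at 6 weeks (log2 change 0.63, SE 0.15, adjusted p = 0.02 at 6 weeks).

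Of the 14 Rabs of endosomes, lysosomes and surface delivery, 6 were higher and 2 lower at 3 days, beside 20% and 21.9% of all genes. Rab7a, the Rab of late endosomes, had signals of 253, 37.1 and 96.2 in intact bone, 445, 305 and 574 at 3 days and 424, 560.0 and 514 at 2 weeks (log2 change 2.36, SE 0.54, adjusted p = 0.0072). The intact arrays spread over a wide range, and the young one was the highest. Rab13, which delivers cargo to the surface and to cell junctions, went from 437, 328 and 306 to 1281, 1113 and 1216 at 3 days (log2 change 1.77, SE 0.18, adjusted p = 4.3e-05) and was higher at all 5 times with no overlap. Rab14, which works between Golgi and endosomes, was higher until 2 weeks (log2 change 1.49, SE 0.44, adjusted p = 0.021 at 1 week). Rab38, of lysosome-related organelles, was higher at 2 and 4 weeks, by 1.51, adjusted p = 0.021, and 1.47, adjusted p = 0.034.

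Close relatives in this group were called at different times or in opposite directions, though the difference between them was not tested. Rab8a was higher until 2 weeks (1.35, adjusted p = 0.0085, at 3 days), and Rab8b was called at 6 weeks, when it was lower. Rab8b read 379, 435 and 312 in intact bone and 155, 186 and 219.7 at 6 weeks (log2 change −1.01, SE 0.26, adjusted p = 0.027). Rab11a, the Rab of recycling endosomes, went from 624, 854 and 582.2 to 1134, 1295 and 1344 at 3 days (log2 change 0.89, SE 0.17, adjusted p = 0.0018). Rab11b went from 2016, 1954 and 2055 to 1566, 1522 and 1529.7 (log2 change −0.38, SE 0.13, adjusted p = 0.036). The probe sets of these 2 genes disagreed: another Rab11b probe set was higher by a log2 change of 1.93 at 3 days and 2.18 at 1 week, and another Rab11a probe set was lower at 2 weeks, with a log2 change of −0.61. As means over all probe sets Rab11b was higher by 0.41 at 3 days and 0.56 at 1 week.

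At the cell surface, Stx4, the SNARE that receives constitutive vesicles in most cells, was higher until 4 weeks. Its signals were 184, 146 and 206 in intact bone, 365, 407 and 307 at 3 days and 352, 411 and 351 at 1 week (log2 change 1.07, SE 0.19, adjusted p = 0.0018). Its partners Snap23 and Vamp3 were called at no time, with log2 changes of 0.26 and −0.14 at 3 days. Stxbp2, also known as Munc18-2, serves granule release in mast cells and neutrophils. It read 187, 197 and 161 in intact bone, 91.2, 73.8 and 84.8 at 3 days and 106, 136 and 87.3 at 4 weeks. It was lower until 4 weeks with no overlap (log2 change −1.12, SE 0.22, adjusted p = 0.002 at 3 days, −0.66, adjusted p = 0.063, at 6 weeks). Beside it, all 5 mast cell genes were lower at 3 days. Their summed signal was 2370 to 3414 in intact bone, 296.9 to 433.1 at 3 days and 3744 to 5358 at 4 weeks. That of the 4 neutrophil genes was 40160 to 52680, 1000 to 13900 and 3989 to 15970. The part of these cells in the fall of Stxbp2 was not tested.

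**Figure D4:**
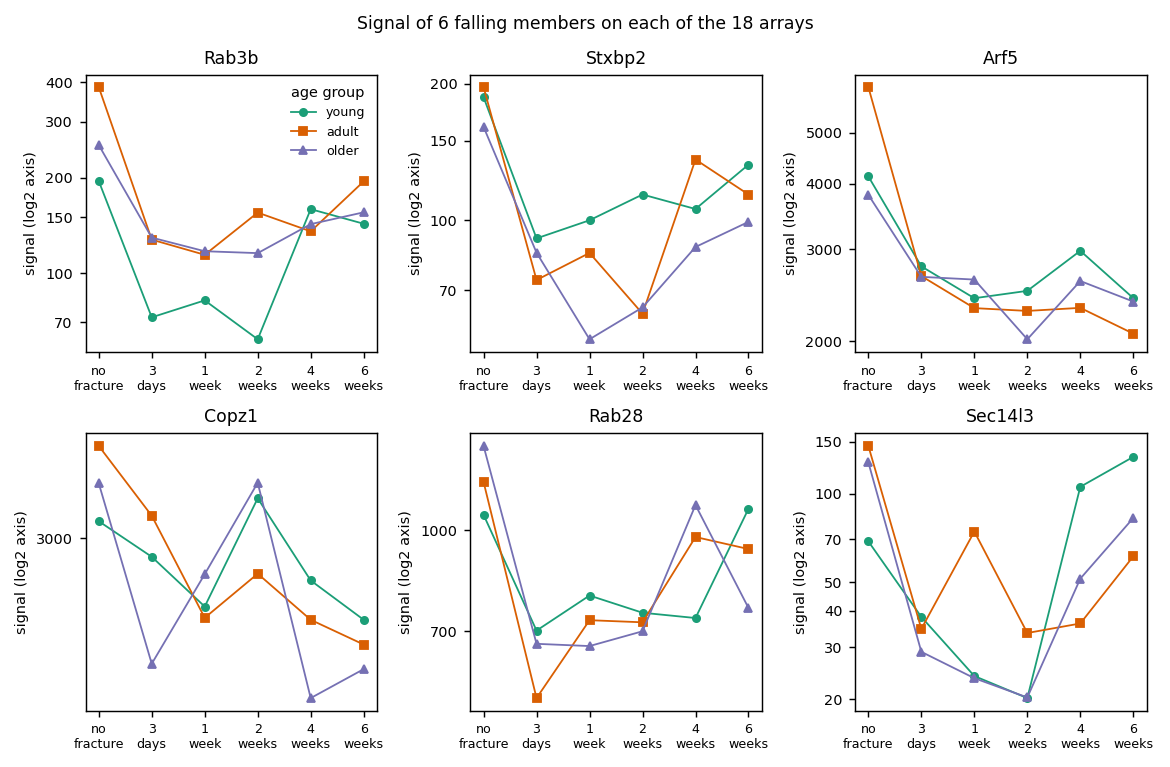
Signal (log2 axis) of 6 genes called lower at 1 or more times, on each of the 18 arrays, by time (horizontal axis) and age (colours and markers). The intact arrays at the left are the highest for Stxbp2 and Arf5, and Sec14l3 and Rab28 overlap them at 4 and 6 weeks.

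Few of the genes grouped under regulated secretion were called. Stxbp2, lower until 4 weeks, was grouped under surface SNAREs and is not counted here. Of the 7 Rabs of regulated secretion, 2 were lower at 3 days, 1 at 1 week, 2 at 2 weeks, 1 at 4 weeks and 0 at 6 weeks. With 21.9% of all genes lower at 3 days, 2 of 7 is near the share of all genes. Rab3b, which tethers secretory granules, had signals of 195, 386 and 254 in intact bone, 72.6, 128 and 129.5 at 3 days and 143, 195 and 156 at 6 weeks. It was below intact bone until 4 weeks (log2 change −1.33, SE 0.25, adjusted p = 0.0016 at 3 days, −0.71, adjusted p = 0.075, at 6 weeks). Rab3a, its relative on synaptic vesicles, was lower at 3 days, 22.5, 42.2 and 36.5 against 87.1, 77.6 and 62.4 (log2 change −1.20, SE 0.36, adjusted p = 0.022). Of the 5 SNAREs and partners of this kind, Stxbp5 at 2 weeks was the one call. Snap25, the neuronal surface SNARE, stayed between 25.3 and 134 on all 18 arrays, and its log2 change was −0.04, SE 0.51, adjusted p = 1 at 3 days. The 8 neuron genes summed to 748.5 to 1218 in intact bone and 852.5 to 1001 at 3 days. Stx3, Rab2a, Rab4a, Rab29 and Snap91 were below the floor on 9 or more arrays, so that little can be said of them.

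Rab28 and Sec14l3, placed in no role, were lower until 2 weeks. Rab28 read 1056, 1186 and 1347 in intact bone and 702, 554 and 670.2 at 3 days (log2 change −0.90, SE 0.17, adjusted p = 0.0019). Sec14l3, a lipid-binding protein that shares only the start of its name with the Sec genes of the pathway, read 68.8, 145 and 128 in intact bone and 20.2, 33.6 and 20.3 at 2 weeks (log2 change −2.18, SE 0.52, adjusted p = 0.009).

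The time of the highest level was compared directly, in contrasts chosen after the data were seen. From 3 days to 6 weeks 17 of the 67 genes fell and 1, Vamp2, rose (0.37, adjusted p = 0.046), beside 11% and 10.9% of all genes. All of the entry genes but Sec62 were among the 17. The log2 change from 3 days to 6 weeks was −2.16, adjusted p = 0.00018, for Sec61a1 and −1.54, adjusted p = 0.00023, for Sec61b. Copb1 and Copb2, Arf1, Arf2 and Arf4 fell as well, and so did Rab1a, Rab6a and Rab13. Copz2, Rab33b, Rab12 and Sec31a did not pass this test. The step from 3 days to 1 week was called for Sec61b and Sec22a alone, with 3 days higher in both (0.82, adjusted p = 0.028, and 1.26, adjusted p = 0.02). Over all genes 1.67% were higher and 2.3% lower at 3 days than at 1 week.

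Other genes of the route were taken from lists by role. Of 5 measured genes of endoplasmic reticulum entry and glycosylation, 5 were higher until 2 weeks, 2 at 4 weeks and 0 at 6 weeks. They include Rpn1 (1.06, SE 0.07, adjusted p = 7e-06) and Ddost (1.52, SE 0.12, adjusted p = 1.3e-05), parts of the enzyme that attaches sugar chains, at 3 days on the log2 scale. Of 8 measured genes from a list of cargo receptors, coats and Golgi proteins 4 were higher and 1 lower at 3 days. None of the 8 encodes a coat subunit. Lman1, which carries glycoproteins from the endoplasmic reticulum, rose by 3.37, SE 0.16, adjusted p = 8.6e-07, and Tango2 was lower (−1.66, SE 0.16, adjusted p = 2.9e-05). Of 12 genes of SNARE recycling and Golgi SNAREs 7 were higher and 2 lower, with Ykt6, a Golgi SNARE, at 3.73, SE 0.21, adjusted p = 2.4e-06. Ykt6 read 16.5, 14.2 and 9.3 in intact bone of young, adult and older rats, all under the floor, and 291, 223 and 288 at 3 days. The size of its log2 change and the SE therefore depend on the floor.

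Of 17 Rab regulators and effectors 6 were higher and 1 lower at 3 days, and Gdi2, which recovers Rabs from membranes, rose by 2.38, SE 0.30, adjusted p = 0.00016. Of 20 clathrin and adaptor genes 9 were higher and 3 lower. Of 27 synaptic vesicle and exocytosis genes 1 was higher and 6 were lower, among them Syt7, a calcium sensor, at −1.94, SE 0.26, adjusted p = 0.00024. The 6 make up 22.2% of that list, near the 21.9% of all genes lower at 3 days. Over the 89 genes of these lists 32 were higher and 13 lower at 3 days, with a median log2 change of 0.21, and 9 were higher and 9 lower at 6 weeks. As shares, 36% were higher and 14.6% lower at 3 days, beside 20% and 21.9% of all genes, and 10.1% each way at 6 weeks was near the 8.74% and 8.78% of all genes.

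Age on its own was called for none of the 67 genes. In older against young rats over all times, limma called 0 of 67, beside 0.549% of all genes, and the methods' t-test called 0. The largest differences by p were Rab12 (0.49, SE 0.11, adjusted p = 0.094) and Rab6a (0.54, SE 0.12, adjusted p = 0.094), both higher in older rats, then Rab11fip5 (0.37, adjusted p = 0.24). The median Rab12 signal was 908 for the young, 1094 for the adult and 1199 for the older arrays, with ranges that overlapped. On the lower side were Stxbp2 (−0.45, adjusted p = 0.21), Rab38 (−0.63, adjusted p = 0.39) and Rab3c (−0.50, adjusted p = 0.41). In adult against young rats limma called 0 of 67, beside 0.0845% of all genes, and the methods' t-test called 0. The lowest p-values on the higher side were those of Rab3b (0.64, adjusted p = 0.28), Snap29 (0.55, adjusted p = 0.37) and Sec61a1 (0.51, adjusted p = 0.37). On the lower side they were those of Rab3c (−0.63, adjusted p = 0.46), Rab2a (−0.18, adjusted p = 0.6) and Stx12 (−0.18, adjusted p = 0.62).

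Older and young rats were also compared within healing phases, with 2 arrays of each age per phase. At 1 and 2 weeks limma called 0 of 67 genes and 0% of all genes. At 4 and 6 weeks 1 was called, beside 1.29% of all genes. It was Rab12, which read 802, 1189 and 1457 in young, adult and older rats at 4 weeks and 697, 998 and 1119 at 6 weeks. The older arrays were the highest and the young the lowest at both times (log2 difference 0.77, SE 0.07, adjusted p = 0.031). The older array was also above the young one in intact bone, 802 against 528, and at each earlier time after fracture. A departure from the difference in intact bone was not called for Rab12. The call held under each of the 5 alternatives run for this comparison.

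Whether these differences departed from the one in intact bone was asked next. At 4 and 6 weeks 4 of the 67 genes were called, beside 2.91% of all genes, and all 4 had a larger difference in favour of older rats than in intact bone. Copz2 read 359 in young and 183 in older rats without a fracture, and 406 and 945 at 6 weeks (log2 difference of differences 2.09, SE 0.32, adjusted p = 0.047). Copb1 read 487 and 287 without a fracture, and 494 and 659 at 6 weeks (1.10, SE 0.17, adjusted p = 0.048). Rab33b read 95.9 and 61.2, and then 139.6 and 232 (1.36, SE 0.18, adjusted p = 0.032). Rab14 read 232 and 65.7, and then 52.0 and 81.7 (2.37, SE 0.36, adjusted p = 0.048). For each of the 4 the young array was the higher in intact bone and the lower at 4 and 6 weeks. Each rests on 1 intact array per age. Over the 67 genes the value was above 0 in 47, with a median of 0.35, beside a median of 0 over all genes; with a floor of 100 it was above 0 in 38, with a median of 0.08, and under median centring in 39, with a median of 0.24. Under quantile normalization none of the 4 passed, with adjusted p from 0.053 to 0.078. With a floor of 100 the value was 1.38 for Rab14 (adjusted p = 0.18) and 0.71 for Rab33b (adjusted p = 0.24), and Copz2 and Copb1 passed.

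At 1 and 2 weeks Arf3 was the 1 gene called in this way, beside 2.2% of all genes (2.25, SE 0.24, adjusted p = 0.019). It rests on the older intact array, where Arf3 read 15.6, under the floor, against 73.9 in young rats; with a floor of 100 the value was 0.33 (adjusted p = 0.18). The summed fibrous matrix genes also differed widely among the intact arrays, from 5245 to 28660, and their part in these age differences was not tested.

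**Figure D5:**
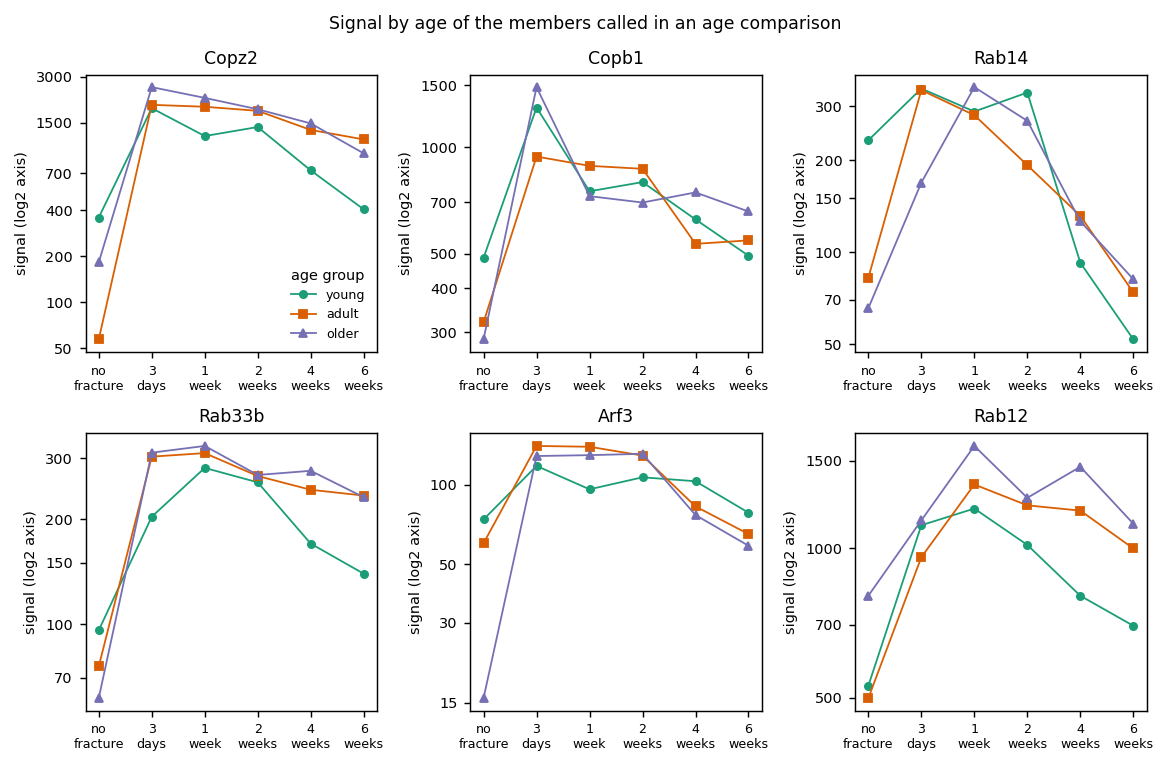
Signal (log2 axis) of the 6 genes called in a comparison of older with young rats, on each of the 18 arrays, by time (horizontal axis) and age (colours and markers). For Copz2, Copb1, Rab14 and Rab33b the young array (circles) is the highest without a fracture and the lowest at 6 weeks.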

How the data were processed

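The authors deposited 1 signal intensity per probe set, from Affymetrix Microarray Suite 5.0 with each array scaled to a target of 500. A signal is thus relative to the others on its array. Whether it rises where abundant transcripts leave the tissue was not tested. The number of arrays limits the precision. Of the 8740 non-control probe sets, 7006 name 1 gene in the platform annotation. Signals under 20 were set to 20 before log2, so changes of genes near the floor are understated. The fit was limma 3.58.1 (R 4.3.3), a term for time plus one for age, leaving 10 residual degrees of freedom. Age was nested in healing phase in a separate fit (4 residual degrees of freedom). Benjamini-Hochberg adjustment ran over all probe sets and the threshold was 0.05. The fits were also run on simulated data with additive age effects and independent normal noise. Such data cannot check whether the real arrays meet these assumptions. The methods name a t test, on signal values and with no threshold stated for it. What is called the methods' t-test here was run on the log2 values of these arrays, after Benjamini-Hochberg and at 0.005, a threshold that the methods set for another test, the array software's change call between 2 arrays, so its counts are not those of the study's own procedure. Named are the 5 highest and 5 lowest called changes at each time, genes called at 4 or 5 times, genes called by age or else the 3 lowest p each way, and genes whose probe sets disagree. The members, lists and roles were chosen with earlier results of these data known.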

Additional observations from a re-analysis of the deposited data

Results flagged for a closer look

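Each of 5 genes had a difference between older and young rats after fracture that departed from the difference in intact bone by the interaction test in limma. The departure was 2.25 on the log2 scale for Arf3 at 1 and 2 weeks. At 4 and 6 weeks it was 1.10 for Copb1, 2.09 for Copz2, 2.37 for Rab14 and 1.36 for Rab33b. All of these values are positive, and each uses the 1 young and the 1 older intact array. None of the 5 was called under every alternative. Under quantile normalization the 4 at 4 and 6 weeks were not called, with adjusted p from 0.053 to 0.078. Arf3 was not called under median centring (adjusted p = 0.071), with a floor of 100 (0.33, adjusted p = 0.18) or with 50 added to the signal (1.17, adjusted p = 0.1). With a floor of 100 Rab14 (1.38, adjusted p = 0.18) and Rab33b (0.71, adjusted p = 0.24) were not called either.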

How the results depend on the processing

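Of 116 calls of named genes against intact bone, 114 stood under quantile normalization, 111 under median centring, 114 with 50 added to the signal and 105 with a floor of 100. With the actin ratio as a covariate 54 stood, with a fit on only the arrays compared 9, and 43, 40 and 102 without the adult, the older or the young rats. The cause of these losses was not tested. Turned in sign were Rab11b at 3 days (0.41) and 1 week (0.56) and Arf2 at 2 weeks (−0.21), as means over all probe sets.

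Given in the order 3 days, 1, 2, 4 and 6 weeks, the members called higher on only the arrays compared were 10, 1, 0, 0 and 0, and the members called lower were 0 at each time. The methods' t-test on log2 values gave 14, 10, 7, 3 and 1 higher and 3, 2, 1, 0 and 1 lower at 0.005, a threshold borrowed from another test of the methods, and 16, 11, 7, 1 and 0 higher and 3, 2, 1, 0 and 0 lower after Benjamini-Hochberg. With the actin covariate 15, 11, 8 and 0 were higher at the first 4 times, and 3, 3, 3 and 1 lower. Among genes with a mean signal of 200 or more (44 members), 3, 2, 2 and 2 were lower at the first 4 times. A floor of 100 left 4 lower at 1 week. Without the age as replicate block 2 were lower at 4 weeks. Leaving out 1 age, the number higher ranged from 20 to 25 at 3 days, 11 to 25 at 1 week, 8 to 23 at 2 weeks, 0 to 19 at 4 weeks and 0 to 15 at 6 weeks. The number lower ranged from 3 to 6, 2 to 5, 2 to 6, 0 to 4 and 0 to 5.

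In older against young rats 1 member was called higher under median centring and 2 among genes with a mean signal of 200 or more. At 4 and 6 weeks the age difference was called for 3 members under median centring, 2 with 50 added and 3 with the filter on mean signal. The departure at 1 and 2 weeks was called for 0 under median centring, a floor of 100 or an added 50. At 4 and 6 weeks it was called for 0 under quantile normalization, 1 under median centring, 2 with a floor of 100 and 1 with 50 added. The cause of these shifts was not tested either. Quantile normalization moved the median of all genes by at most 0.08 and median centring by at most 0.05 on the log2 scale. Signals near the floor limit the 17 members with a median under 100.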
